A study of Oryza sativa with 20 samples.

Results

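Roots of the rice (Oryza sativa) cultivars Moddai Karuppan and Niyan Wee were compared gene by gene, using the 4 libraries titled with each name, 8 of the 20 libraries in the series. The series holds 4 libraries for each of 5 cultivars, and its title concerns aquaporin genes in Sri Lankan Indica II rice, a set to which both cultivars are taken here to belong. Both groups are root tissue of an untransformed cultivar with no treatment named, and the labels give neither plant age nor growth conditions. Replicates R1 and R2 of each cultivar carry the pool tag P1, replicates R3 and R4 carry P2, and the labels call the replicate number a batch. Nothing in the labels says that the replicates came from separate plants, so p-values measure only the spread between these libraries.

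Cultivars of one species differ both in the genes their genomes carry and in how strongly shared genes are transcribed. In a bulk root sample the tip, where cells divide, contributes transcripts of DNA replication and histone genes, and the older root contributes transcripts of water channels and ion transporters. A bulk measurement cannot tell fewer cells of one kind from less RNA per cell.

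Library totals of the pair lay between 23528893 and 31996643 counts. Ribosomal RNA took 38.2%, 51.1%, 33.6% and 45.3% of them in Moddai Karuppan replicates 1 to 4, and 4.07%, 44.0%, 19.8% and 56.2% in Niyan Wee replicates 1 to 4. Its mean share was 42.0% ± 7.75 in Moddai Karuppan and 31.0% ± 23.5 in Niyan Wee (SD, n = 4 each), a difference within the spread (exact permutation test, two-sided, p = 0.429, with 0.0286 the smallest p that 70 arrangements allow). Between 11216572 and 28063061 counts per library remained for other genes. Correlations of log2 CPM (a gene's count relative to its library's total, scaled by edgeR's TMM method) across genes were 0.941 to 0.972 among Moddai Karuppan libraries, 0.918 to 0.953 among Niyan Wee libraries and 0.882 to 0.922 between the cultivars. All 8 root markers looked up had a row. Their means ran from 0.587 CPM (AMT1-3) to 815 CPM (RCc3) in Moddai Karuppan. In Niyan Wee the means of the same 2 genes, again the lowest and highest, were 2.01 and 641 CPM. The lowest root markers were thus near the level of the leaf gene given next. Of 8 leaf markers 1 had a row, a Rubisco small subunit gene, RBCS (LOC_Os12g17600), at 2.71 ± 1.44 CPM in Moddai Karuppan and 1.48 ± 0.476 CPM in Niyan Wee.

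The roots of the cultivars differed at a small share of genes, often by a large fitted factor. Of 21225 genes tested, 503 (2.37%) passed edgeR's quasi-likelihood test at a Benjamini-Hochberg adjusted p below 0.05, 285 (1.34%) higher in Moddai Karuppan and 218 (1.03%) lower. The median size of the log2 fold change was 2.38 among the genes that passed and 0.26 over all genes tested. Past 3 log2 units lay 138 genes that were higher and 88 that were lower. Passing the test itself favours large fold changes, so the 2 medians are not a like-for-like comparison. Many called genes were weakly expressed: the larger cultivar average reached 5 CPM at 292 of the 503 and stayed under 1 CPM at 39. Both averages reached 10 CPM at 92. Where a gene was at or near 0 in 1 cultivar, its fitted fold change depends on the model's prior count. The CPM of the 4 Moddai Karuppan libraries did not overlap the 4 Niyan Wee libraries at 474 of the 503, against 9.89% of all genes tested. Passing the test also favours libraries that do not overlap, so this too is not a like-for-like comparison. Of the 503, 300 (1.41% of all genes tested) also passed whenever any 1 of the 8 libraries was left out. Niyan Wee replicates 2 and 3 had the highest medians of the 8 libraries in the cell division and DNA replication lists described below. Leaving out both left 277 calls, of which 259 were among the 503. The same model called 372 genes between Moddai Karuppan and Sarali, and 611 between Niyan Wee and Sarali. Each of the 7 pairs that include Bala or Azucena gave between 2362 and 4251.

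**Figure D1:**
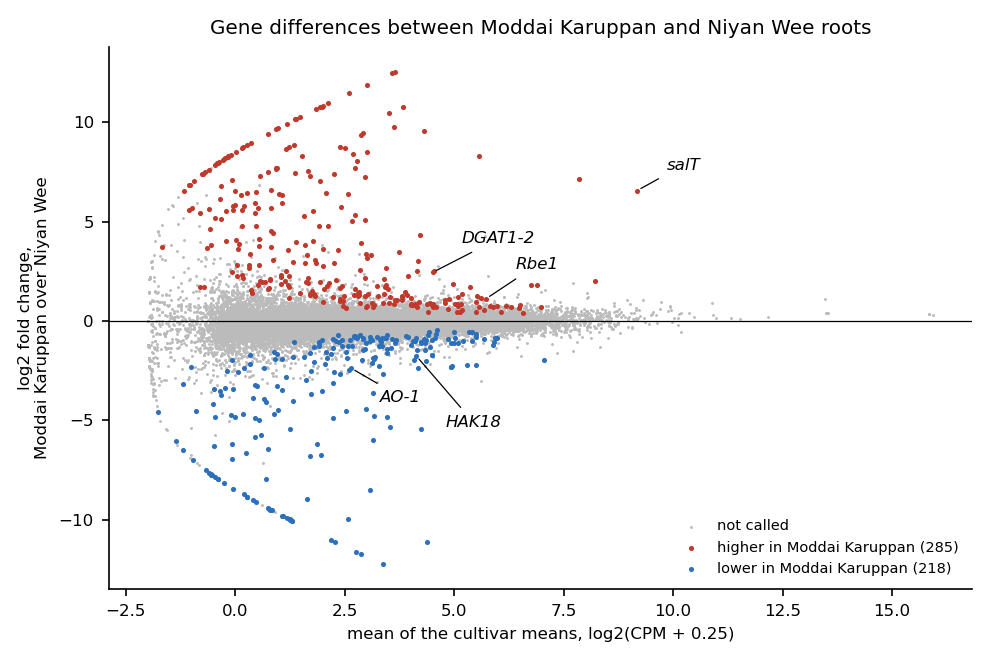
Each point is 1 gene, placed by its mean level in the pair as log2(CPM + 0.25) and by its log2 fold change, Moddai Karuppan over Niyan Wee. Red marks the 285 genes higher and blue the 218 genes lower in Moddai Karuppan at an adjusted p below 0.05, and the outer arcs are genes at or near 0 in 1 cultivar, whose fitted fold change depends on the model's prior count.

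Most of the genes that passed carry no gene name in the tables used: 468 of 503 are known by identifier alone. Among the 2370 tested genes with a name 35 (1.48%) passed, 20 higher and 15 lower in Moddai Karuppan. At 14 of the 35 the call held without each library in turn and the libraries did not overlap. Those 14 are described first, then 10 more by list. The other 11 named genes, 9 higher (log2 fold changes 0.46 to 5.60) and 2 lower (-1.64 and -0.48), each lost the call without at least 1 library.

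The largest named difference was in salT (LOC_Os01g24710, chromosome 1), which encodes a salt-induced mannose-binding lectin of rice roots and sheaths. Moddai Karuppan libraries held 1542, 748, 1390 and 911 CPM of salT, and Niyan Wee libraries 17.3, 10.7, 3.62 and 17.1 CPM. Every Moddai Karuppan library was far above every Niyan Wee library. The log2 fold change was 6.56 ± 0.689 (SE; edgeR adjusted p = 4.05e-06). The level of salT averaged 17.2 CPM in Sarali, 14.3 in Bala and 90.7 in Azucena, so Moddai Karuppan had the highest mean of the 5 cultivars. It was the only called member of 85 drought and abscisic acid genes, where 2.37% of all genes tested were called. The median log2 fold change of that list was -0.035, against -0.027 over all genes tested.

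An enzyme of storage lipid synthesis and one of starch synthesis rose in Moddai Karuppan. DGAT1-2 (LOC_Os06g36800), a diacylglycerol acyltransferase of the last step of triacylglycerol synthesis, stood at 36.0, 31.1, 46.1 and 38.3 CPM in Moddai Karuppan and at 8.44, 5.91, 7.26 and 6.31 CPM in Niyan Wee. The groups did not overlap, and the log2 fold change was 2.44 ± 0.213 (SE; edgeR adjusted p = 4.01e-07). The other cultivars did not fall on one side of the pair, since Sarali averaged 6.95, Bala 13.7 and Azucena 30.4 CPM of DGAT1-2. Rbe1 (LOC_Os06g51084), starch branching enzyme I, had 75.9, 67.1, 55.4 and 91.0 CPM in Moddai Karuppan and 38.4, 26.7, 29.9 and 38.1 CPM in Niyan Wee. Its log2 fold change was 1.12 ± 0.159 (SE; edgeR adjusted p = 0.00017). Sarali, Bala and Azucena averaged 33.7 to 43.4 CPM of Rbe1, near the Niyan Wee mean of 33.2 CPM.

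Smaller rises were seen at CPA, HAL3, SODCC.2 and MUB4. CPA (LOC_Os02g33080) averaged 114 ± 8.23 CPM in Moddai Karuppan and 66.1 ± 7.87 CPM in Niyan Wee (SD, n = 4 each; log2 fold change 0.78, edgeR adjusted p = 0.000133). Niyan Wee held the lowest mean level of CPA of the 5 cultivars, the others averaging 90.8 to 133 CPM. HAL3 (LOC_Os06g09910), a decarboxylase of coenzyme A synthesis, averaged 20.5 ± 1.59 CPM in Moddai Karuppan and 11.4 ± 3.29 CPM in Niyan Wee (log2 fold change 0.85, edgeR adjusted p = 0.0106). SODCC.2 (LOC_Os07g46990), a copper-zinc superoxide dismutase, had 182, 131, 141 and 171 CPM in Moddai Karuppan against 89.4, 84.2, 87.8 and 121 CPM in Niyan Wee. Its groups were separated by a narrow gap, and the log2 fold change was 0.71 ± 0.137 (SE; edgeR adjusted p = 0.00468). For HAL3 and SODCC.2, as for CPA, Sarali, Bala and Azucena lay above Niyan Wee, at 19.2 to 21.7 CPM of HAL3 and 123 to 149 CPM of SODCC.2. MUB4 (LOC_Os04g32270), a membrane-anchored ubiquitin-fold protein, averaged 97.6 ± 8.09 CPM in Moddai Karuppan and 59.7 ± 12.2 CPM in Niyan Wee (log2 fold change 0.71, edgeR adjusted p = 0.0108).

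The low-level gene TAC1 is named for its part in rice tiller angle. TAC1 had 1.80, 1.48, 1.36 and 1.12 CPM in Moddai Karuppan and 0.526, 0.251, 0.385 and 0.0825 CPM in Niyan Wee, a log2 fold change of 2.14 ± 0.424 (SE; edgeR adjusted p = 0.0061). Without Niyan Wee replicates 2 and 3, which leaves 2 libraries of that cultivar, SODCC.2 (log2 fold change 0.57, edgeR adjusted p = 0.145) and TAC1 (2.12, 0.0995) missed the threshold. A fit of the 8 libraries alone, with its own estimate of the spread, ended the calls of HAL3 (0.84, 0.0643), MUB4 (0.70, 0.0812), SODCC.2 (0.70, 0.0837) and TAC1 (2.12, 0.0531) at nearly the same fold changes.

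**Figure D2:**
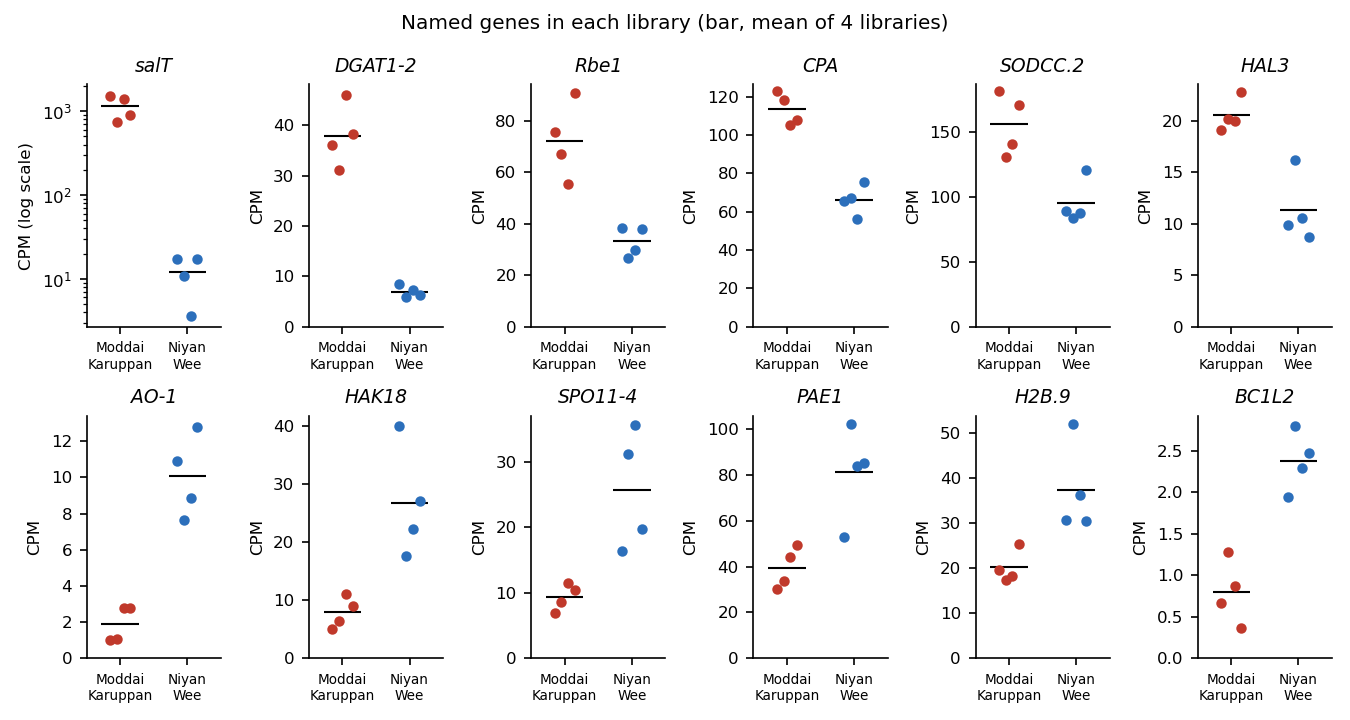
Each point is 1 library, with CPM on the vertical axis (log scale for salT alone) and bars at the mean of 4 libraries, Moddai Karuppan left and Niyan Wee right. The 6 genes of the top row are higher in every Moddai Karuppan library, salT from 748 to 1542 CPM, and the 6 of the bottom row are lower in every Moddai Karuppan library.

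Among the lower genes were enzymes, a transporter and a proteasome subunit. AO-1 (LOC_Os10g04860), an aldehyde oxidase, had 0.995, 1.08, 2.80 and 2.78 CPM in Moddai Karuppan and 10.9, 7.64, 8.86 and 12.8 CPM in Niyan Wee. Its log2 fold change was -2.38 ± 0.338 (SE; edgeR adjusted p = 0.000174), and Sarali, Bala and Azucena averaged 5.86 to 8.05 CPM, between the pair. HAK18 (LOC_Os09g38960), a potassium transporter of the HAK family, had 5.08, 6.42, 11.0 and 9.08 CPM in Moddai Karuppan and 40.0, 17.7, 22.2 and 27.1 CPM in Niyan Wee. All 4 Moddai Karuppan libraries were below the lowest Niyan Wee library, at a log2 fold change of -1.76 ± 0.295 (SE; edgeR adjusted p = 0.00119). The 3 other cultivars averaged 21.9 to 22.4 CPM of HAK18, so Moddai Karuppan had the lowest mean of the 5. HAK18 was the only called member of 40 nitrogen, phosphate, potassium and sulfate transporters, whose median log2 fold change was -0.097. Over all genes tested 2.37% were called and the median was -0.027.

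PAE1 (LOC_Os11g40140), subunit alpha 5 of the 20S proteasome, had 30.3, 33.9, 44.0 and 49.4 CPM in Moddai Karuppan and 52.7, 102, 84.0 and 85.2 CPM in Niyan Wee. The log2 fold change was -1.04 ± 0.185 (SE; edgeR adjusted p = 0.00204), and Sarali, Bala and Azucena averaged 84.2 to 86.7 CPM, on the Niyan Wee side. BC1L2 (LOC_Os03g30260), a COBRA-like protein of the cell wall, averaged 0.796 ± 0.385 CPM in Moddai Karuppan and 2.38 ± 0.355 CPM in Niyan Wee (log2 fold change -1.58, edgeR adjusted p = 0.00894). Without Niyan Wee replicates 2 and 3 the calls of PAE1 (log2 fold change -0.81, edgeR adjusted p = 0.0753) and BC1L2 (-1.47, 0.102) ended, while those of AO-1 and HAK18 held. In the fit of the 8 libraries alone PAE1 (-1.05, 0.0522) and BC1L2 (-1.59, 0.0699) also missed the threshold.

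Of the 15 named genes that fell, 2 were histone genes of the cell division list and 5 belonged to a list of DNA replication and repair genes that was chosen after values were seen. SPO11-4 (LOC_Os12g42760), a relative of the SPO11 topoisomerase-like proteins, had 6.89, 8.66, 11.5 and 10.5 CPM in Moddai Karuppan and 16.4, 31.3, 35.6 and 19.8 CPM in Niyan Wee. The groups did not overlap (log2 fold change -1.45 ± 0.215, SE; edgeR adjusted p = 0.000273), and the call held without Niyan Wee replicates 2 and 3, the 2 highest libraries. Histone H2B.9 (LOC_Os05g49860) had 19.6, 17.4, 18.2 and 25.4 CPM in Moddai Karuppan and 30.7, 52.0, 36.3 and 30.4 CPM in Niyan Wee. Its log2 fold change was -0.89 ± 0.18 (SE; edgeR adjusted p = 0.00734), and the call ended without both Niyan Wee replicates 2 and 3 (-0.60, 0.177) and in the fit of the 8 libraries alone (-0.90, 0.0597). A further H2B gene, H2B.11 (LOC_Os01g62230), averaged 15.2 ± 3.55 CPM in Moddai Karuppan and 29.6 ± 9.16 CPM in Niyan Wee (log2 fold change -0.96, edgeR adjusted p = 0.0153). Niyan Wee replicate 4, at 19.0 CPM of H2B.11, lay below Moddai Karuppan replicate 4 at 19.9 CPM. The H2B.11 call ended without any one of Moddai Karuppan replicates 1 and 3 and Niyan Wee replicates 2 and 3 (adjusted p 0.05 to 0.0732). H2B genes are near-identical in sequence, so counts of single members are uncertain.

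The other 4 called members of that list passed by smaller margins. ORC1 (LOC_Os06g08790), the largest subunit of the origin recognition complex, averaged 5.80 ± 2.14 CPM in Moddai Karuppan and 14.0 ± 5.04 CPM in Niyan Wee (log2 fold change -1.27, edgeR adjusted p = 0.0322). RPA70b (LOC_Os03g11540), a subunit of the single-stranded DNA binding protein RPA, averaged 12.5 ± 3.32 CPM in Moddai Karuppan and 27.2 ± 8.25 CPM in Niyan Wee (-1.12, 0.0193). RPA32A (LOC_Os02g58220), another RPA subunit, averaged 6.53 ± 0.991 CPM in Moddai Karuppan and 12.8 ± 4.25 CPM in Niyan Wee (-0.97, 0.047). RBR1 (LOC_Os08g42600), a retinoblastoma-related repressor of entry into DNA synthesis, averaged 5.18 ± 1.25 CPM in Moddai Karuppan and 9.41 ± 1.71 CPM in Niyan Wee (-0.86, 0.0305).

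The calls of these genes rested on several libraries. That of ORC1 ended without Moddai Karuppan replicate 1, 2 or 3 or Niyan Wee replicate 2 or 3 (edgeR adjusted p 0.059 to 0.129), and that of RPA70b without Moddai Karuppan replicate 1 or Niyan Wee replicate 2 or 3 (0.0543 to 0.0936). That of RPA32A ended without any Moddai Karuppan library or Niyan Wee replicate 2 or 3 (0.0837 to 0.189), and when the ribosomal RNA share entered the fit (0.0503, at a log2 fold change of -1.03). The RBR1 call ended without Moddai Karuppan replicate 1, 2 or 4 or Niyan Wee replicate 1, 2 or 3 (0.0626 to 0.126), and with that share in the fit (0.0679, at -0.77). Without both Niyan Wee replicates 2 and 3, ORC1 (log2 fold change -0.74, edgeR adjusted p = 0.502), RPA70b (-0.72, 0.372), RPA32A (-0.61, 0.486), RBR1 (-0.70, 0.327) and H2B.11 (-0.58, 0.356) all missed the threshold.

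In a list of 44 cell division genes 1 rose, 2 fell and 41 did not pass, against 1.34% of all genes tested called higher and 1.03% called lower. The member that rose was KRP3 (LOC_Os11g40030), an inhibitor of the kinases that drive the cell cycle. KRP3 had 13.2, 7.30, 9.98 and 8.26 CPM in Moddai Karuppan and 4.24, 4.18, 3.51 and 3.63 CPM in Niyan Wee, a log2 fold change of 1.32 ± 0.3 (SE; edgeR adjusted p = 0.0191). The KRP3 call ended without Moddai Karuppan replicate 1 (0.0925) or Niyan Wee replicate 3 (0.0719). The list's median log2 fold change was -0.55, against -0.027 over all genes tested, and 22 of the 44 were lower at an unadjusted p below 0.05, against 7.62% of all genes tested. By group, the median was -0.70 for 8 MCM helicase subunits, -0.57 for 18 A, B and D cyclins, -0.45 for 10 histone H2B genes and -0.049 for 5 KRP inhibitors. Without Niyan Wee replicates 2 and 3 these medians were -0.41 for the MCM genes, -0.30 for the cyclins, -0.13 for the H2B genes and 0.082 for the KRP inhibitors. All 8 MCM genes had a negative log2 fold change, 6 of them at an unadjusted p below 0.05, and none passed after adjustment.

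Within Niyan Wee, cell division genes differed between libraries as much as between the cultivars. Relative to each gene's mean over the 8 libraries, the list's median stood at -0.41, -0.23, -0.19 and -0.069 log2 units in Moddai Karuppan replicates 1 to 4, and at -0.021, 0.63, 0.32 and -0.048 in Niyan Wee replicates 1 to 4. Niyan Wee replicates 1 and 4 thus lay just above the Moddai Karuppan libraries, and replicate 2 was the highest of the 8 libraries for 25 of the 44 genes. Niyan Wee replicates 2 and 3 were picked as standing apart, and without them fewer libraries remained and 1.30% of all genes passed. In that fit none of the 44 passed and the median was -0.20. With the replicate number as a block 7 of the 44 passed (2.39% of all genes), and DESeq2, which called 4.51% of all genes, called 9. In pool P1 alone (replicates 1 and 2) the median was -0.68 and in pool P2 alone -0.28. The list of 34 DNA replication and repair genes, chosen with these values in view, had 0 called higher and 5 lower, against 1.03% of all genes tested called lower. Its median was -0.31, and without Niyan Wee replicates 2 and 3 it had 1 call and a median of -0.073. Of 33 kinesins, the other list added then, none passed (median -0.26), where 2.37% of all genes tested passed.

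Other gene groups also marked out single Niyan Wee libraries. Of 30 ribosomal protein genes none was called, where 2.37% of all genes tested were. Their list medians were -0.092, -0.028, -0.50 and 0.18 log2 units in Moddai Karuppan replicates 1 to 4. In Niyan Wee replicates 1 to 4 they were -0.44, 0.93, 0.14 and -0.16, so only replicate 2 lay outside the Moddai Karuppan range. The median log2 fold change of these genes was -0.29 with all libraries and 0.20 without Niyan Wee replicates 2 and 3, so its sign depended on those libraries. Aquaporins showed another pattern, with list medians of 0.10, 0.32, 0.09 and 0.20 in Moddai Karuppan replicates 1 to 4 and -0.079, -0.80, -0.55 and 0.82 in Niyan Wee replicates 1 to 4.

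**Figure D3:**
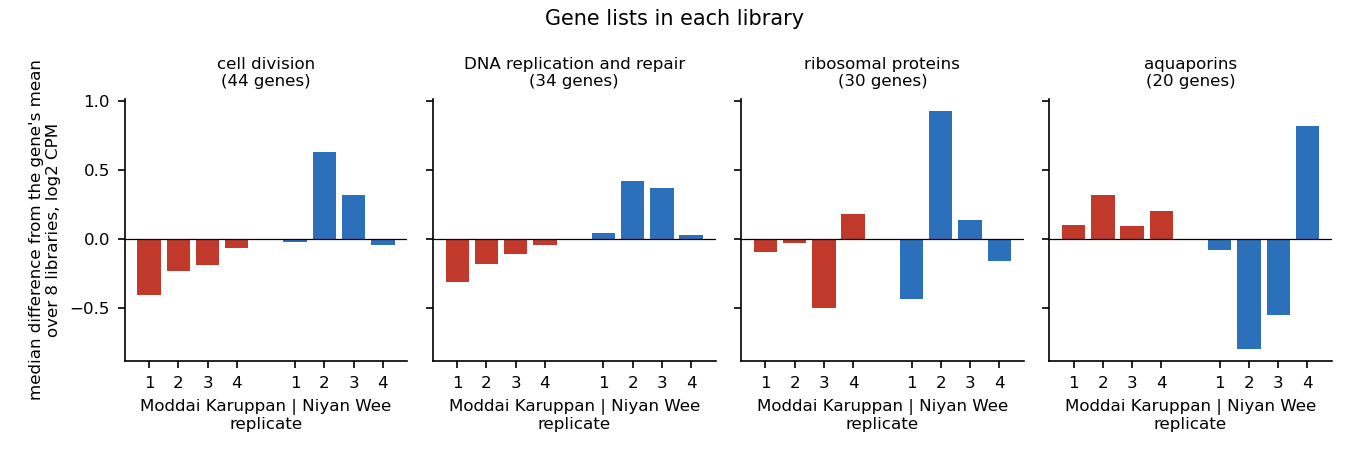
Bars give the median over a list's genes of the difference in log2 CPM from each gene's mean over the 8 libraries, for Moddai Karuppan replicates 1 to 4 (red, left) and Niyan Wee replicates 1 to 4 (blue, right). Niyan Wee replicate 2 is highest for cell division (0.63) and ribosomal protein genes (0.93) and lowest for aquaporins (-0.80), where Niyan Wee replicate 4 is highest (0.82).

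Aquaporins, which let water and small uncharged molecules pass membranes and give the series its title, held no gene that passed the test between the cultivars. None of 20 measured members passed with edgeR or with DESeq2 (2.37% and 4.51% of all genes), and 2 had an unadjusted edgeR p below 0.05 (10%, against 14.2% of all genes). Their median log2 fold change was 0.18 with all libraries and -0.14 without Niyan Wee replicates 2 and 3. Niyan Wee replicate 4 held the highest Niyan Wee value in 15 of the 20, and the highest of all 8 libraries in 13.

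The 2 aquaporins below an unadjusted p of 0.05 had opposite signs. NIP2-1 (LOC_Os02g51110), the silicon influx channel Lsi1, had 100, 143, 66.1 and 59.9 CPM in Moddai Karuppan and 197, 109, 196 and 324 CPM in Niyan Wee. The groups overlapped (log2 fold change -1.16 ± 0.486, SE; edgeR adjusted p = 0.275). PIP1-2 (LOC_Os04g47220), a plasma membrane aquaporin, had 404, 306, 239 and 380 CPM in Moddai Karuppan and 300, 154, 172 and 273 CPM in Niyan Wee (log2 fold change 0.56 ± 0.238, SE; edgeR adjusted p = 0.279). Lsi2 (LOC_Os03g01700), the silicon efflux transporter that works with Lsi1, averaged 50.2 ± 19.4 CPM in Moddai Karuppan and 123 ± 67.3 CPM in Niyan Wee and did not pass (-1.30, edgeR adjusted p = 0.36).

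The vacuolar channels TIP1-1 and TIP2-2 and the silicon channel NIP2-2 were split by a single Niyan Wee library. TIP1-1 (LOC_Os03g05290) had 790, 623, 652 and 706 CPM in Moddai Karuppan and 260, 244, 119 and 1172 CPM in Niyan Wee. TIP2-2 (LOC_Os06g22960) had 913, 759, 977 and 753 CPM in Moddai Karuppan and 231, 342, 152 and 924 CPM in Niyan Wee. NIP2-2 (LOC_Os06g12310), known as Lsi6, had 10.4, 20.4, 25.2 and 22.2 CPM in Moddai Karuppan and 4.73, 3.21, 3.26 and 44.9 CPM in Niyan Wee. In all 3, Niyan Wee replicates 1 to 3 lay below every Moddai Karuppan library and replicate 4 lay among or above them. PIP2-1 (LOC_Os07g26690), a plasma membrane aquaporin, showed the same order, with 487, 357, 408 and 421 CPM in Moddai Karuppan and 237, 208, 138 and 543 CPM in Niyan Wee. Without Niyan Wee replicate 4, NIP2-2 (log2 fold change 2.38, edgeR adjusted p = 0.0421) and PIP2-1 (1.11, 0.0421) passed, the 2 aquaporins that did so when a library was left out.

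The remaining 14 aquaporins had log2 fold changes between -0.67 and 0.59. Of the plasma membrane type, PIP1-1 averaged 257 ± 38.3 CPM in Moddai Karuppan and 248 ± 132 CPM in Niyan Wee, and PIP1-3 averaged 178 ± 84.6 CPM in Moddai Karuppan and 283 ± 157 CPM in Niyan Wee. PIP2-2 stood at 101 ± 25.9 CPM in Moddai Karuppan and 104 ± 66.9 CPM in Niyan Wee. PIP2-3 stood at 72.0 ± 14.2 CPM in Moddai Karuppan and 70.2 ± 61.8 CPM in Niyan Wee.

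The SD of PIP2-3 in Niyan Wee was thus close to its mean. PIP2-6 averaged 116 ± 29.1 CPM in Moddai Karuppan and 95.7 ± 60.8 CPM in Niyan Wee, while the neighbouring genes PIP2-4 and PIP2-5, whose counts could be shared with PIP2-1, averaged 12.3 and 8.28 CPM in Moddai Karuppan and 17.2 and 12.4 CPM in Niyan Wee. Of the vacuolar type, TIP2-1 averaged 180 ± 73.7 CPM in Moddai Karuppan and 119 ± 117 CPM in Niyan Wee. TIP1-2 and TIP4-1 averaged 27.8 and 19.7 CPM in Moddai Karuppan and 29.1 and 22.1 CPM in Niyan Wee. NIP1-2, NIP3-1, SIP1-1 and SIP2-1 averaged 4.05, 15.9, 50.3 and 8.60 CPM in Moddai Karuppan and 2.98, 13.7, 43.5 and 7.79 CPM in Niyan Wee. SIP1-1, an intracellular aquaporin, was the 1 aquaporin of 20 whose libraries did not overlap (log2 fold change 0.21, edgeR adjusted p = 0.524). Over all genes tested the libraries did not overlap at 9.89%.

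Across all 29 gene lists, 9 of 609 member genes passed (1.48%, against 2.37% of all genes tested), and 22 lists had no called member. Besides the members above, the called ones were a mannan synthase, a metal transporter, a response regulator and a cytochrome P450. CSLA1 (LOC_Os02g09930), the mannan synthase among 32 cellulose synthase and cellulose synthase-like genes, averaged 33.9 ± 6.83 CPM in Moddai Karuppan and 50.5 ± 5.14 CPM in Niyan Wee (log2 fold change -0.58, edgeR adjusted p = 0.0423). MTP4 (LOC_Os03g12530), a metal tolerance protein among 45 iron and metal genes, had 26.2, 22.2, 19.9 and 20.0 CPM in Moddai Karuppan and 5.67, 9.52, 8.36 and 16.3 CPM in Niyan Wee (1.15, 0.0135). ORR5 (LOC_Os06g43910), a response regulator of the cytokinin pathway and 1 of 21 cytokinin and ethylene genes, had 2.45, 2.41, 1.98 and 2.03 CPM in Moddai Karuppan. In Niyan Wee it had 0.247 CPM in replicate 1 and 0 in the other 3 libraries (edgeR adjusted p = 0.02), and it averaged 2.56 CPM in Sarali, 0 in Bala and 0.0828 in Azucena. CYP734A5 (LOC_Os07g45290), of a P450 family that inactivates brassinosteroids and 1 of 26 cytochromes P450, averaged 0.185 ± 0.0962 CPM in Moddai Karuppan and 1.07 ± 0.629 CPM in Niyan Wee (log2 fold change -2.52, edgeR adjusted p = 0.0254).

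These calls ended when single libraries were left out. That of CSLA1 ended without any one of Moddai Karuppan replicates 1 to 3 or Niyan Wee replicates 1 to 3 (edgeR adjusted p 0.0536 to 0.175), and when the ribosomal RNA share entered the fit (0.0602, at a log2 fold change of -0.59). That of MTP4 ended without Moddai Karuppan replicate 1 (0.055) or Niyan Wee replicate 3 (0.0611), and that of ORR5 without Niyan Wee replicate 2 (0.0609) or 3 (0.0643). The CYP734A5 call ended without Moddai Karuppan replicate 1, 3 or 4 or Niyan Wee replicate 1 or 4 (0.0533 to 0.101).

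Lists without a called member included 49 auxin response genes (median log2 fold change 0.042), 37 heat shock genes (-0.044) and 27 expansins (-0.37). Others were 23 Casparian strip family genes (0.19), 12 ABC transporters (0.082) and 10 peroxidases (0.20). Over all genes tested 2.37% were called and the median was -0.027. In the resistance and defence list 7 of 14 genes had an unadjusted p below 0.05, 6 of them with positive values, against 14.2% of all genes in either direction and 6.61% with positive values. The list's median was 0.75 with all libraries and 0.45 without Niyan Wee replicates 2 and 3. Its chitinase Cht1 (LOC_Os05g33140) had 102, 20.7, 53.8 and 218 CPM in Moddai Karuppan and 2.09, 12.0, 0.828 and 5.69 CPM in Niyan Wee. The Cht1 libraries did not overlap, yet their spread was wide (log2 fold change 4.28 ± 1.27, SE; edgeR adjusted p = 0.0931; DESeq2 0.00717). All 3 BURP domain genes had an unadjusted p below 0.05 with positive values (6.61% of all genes), a median of 1.14, and none passed.

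A set of 25 of the 21225 genes tested was on in one cultivar and off in the other. On meant 5 CPM or more in all 4 libraries of one, and off under 0.2 CPM in all 4 of the other. Of these 18 were on in Moddai Karuppan and 7 in Niyan Wee. None has a name, where 2370 of all genes tested have one. By type, 11 are protein coding, of 19269 such genes tested, and 10 are long non-coding RNAs, of 1043 tested. The long non-coding RNA LOC107276260 had 19.7, 15.4, 12.5 and 14.5 CPM in Moddai Karuppan and no count in Niyan Wee, at least 895-fold higher (against a floor of 3 counts over the 4 libraries). LOC107278282 (LOC_Os04g05770) had 10.8, 12.0, 13.9 and 9.71 CPM in Moddai Karuppan and no count in Niyan Wee, at least 669-fold higher.

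In the other direction, LOC4350016 (LOC_Os11g09820, chromosome 11) had no count in Moddai Karuppan and 15.3, 21.5, 27.0 and 17.2 CPM in Niyan Wee, at least 945-fold lower. The long non-coding RNA LOC107281663 had no count in Moddai Karuppan and 14.3, 15.5, 11.4 and 15.5 CPM in Niyan Wee, at least 663-fold lower. These 4 were picked among genes that had passed, so their passing was fixed by the choice (edgeR adjusted p 3.08e-06 to 0.00351). A gene missing from a genome, a gene that is silent and a gene whose reads did not match the build cannot be told apart in these counts. Of the 18 genes on in Moddai Karuppan, Sarali averaged at least 5 CPM in 8, Bala in 9 and Azucena in 11. Of the 7 on in Niyan Wee, Sarali averaged at least 5 CPM in 5, Bala in 2 and Azucena in 2.

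The called genes were unevenly spread over the chromosomes, placed by the number in the MSU7 locus identifier. On chromosome 11, 63 of 1030 genes tested passed (6.12%, 33 higher and 30 lower), and on chromosome 9, 40 of 1035 (3.86%). Chromosome 2 had the lowest share, 16 of 2214 (0.723%). Genes with no MSU7 locus passed at 5.27% (117 of 2222). By type, 7.67% of 1043 long non-coding RNAs and 7.88% of 241 pseudogenes passed, against 1.93% of 19269 protein-coding genes. Large resistance gene clusters are known on rice chromosome 11, but the files give no product descriptions, so the called genes there were not assigned to any family.

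**Figure D4:**
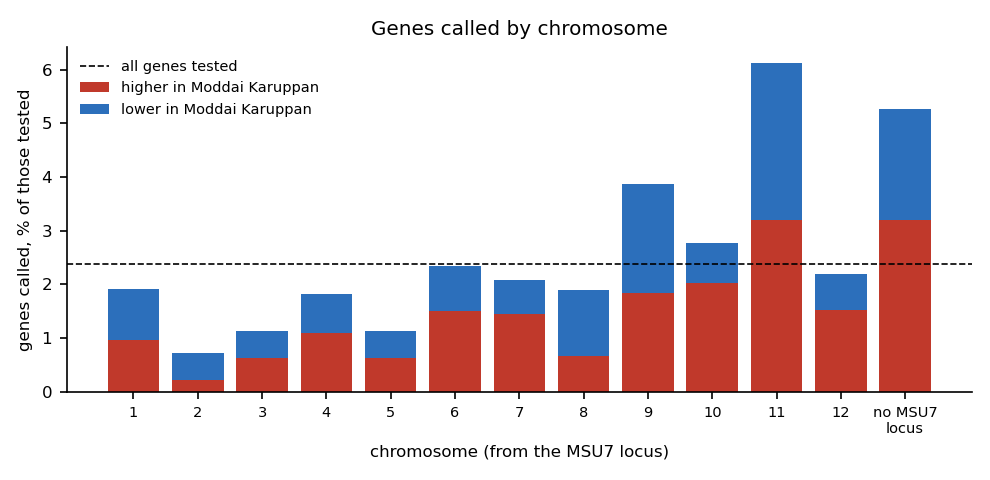
Bars give the percentage of tested genes called on each chromosome, split into genes higher (red) and lower (blue) in Moddai Karuppan, with the 2.37% over all genes as a dashed line. Chromosome 11 (6.12%), chromosome 9 (3.86%), chromosome 10 (2.77%) and genes with no MSU7 locus (5.27%) lie above the line.

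Called genes were often neighbours of each other. Of 479 called genes with a place in the reference order, 151 (31.5%) had a called gene as an immediate neighbour, against 753 (3.70%) of 20351 genes that were not called. Of 84 neighbouring pairs of called genes 74 changed in the same direction, which was not counted over all neighbouring genes tested. Runs of at least 3 called neighbours numbered 14, of which 6 were on chromosome 11 and 11 were of one direction. Each of the 3 longest runs held 4 genes, all higher in Moddai Karuppan. The first ran from LOC_Os07g02200 to LOC_Os07g02260 on chromosome 7 (log2 fold changes 0.85 to 10.76), the second from LOC_Os09g14019 to LOC_Os09g14240 on chromosome 9 (6.83 to 9.33) and the third from LOC_Os11g44340 to LOC_Os11g44430 on chromosome 11 (4.08 to 7.24). AO-1 was the 1 named gene in a run, of 3 genes on chromosome 10 from LOC_Os10g04800 to LOC_Os10g04860, where it fell and the other 2 rose. Neighbouring genes can overlap or share reads, so their counts need not be independent.

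The levels in the other cultivars were set beside those of the pair. Measured on log2(CPM + 0.25) means, Sarali was nearer to Moddai Karuppan at 295 of the 503 genes (58.6%) and nearer to Niyan Wee at 208. Bala was nearer to Moddai Karuppan at 262 and to Niyan Wee at 241, and Azucena was nearer to Moddai Karuppan at 216 and to Niyan Wee at 287. The Azucena split came from the 218 lower genes, where Azucena was nearer to Moddai Karuppan at 54 and to Niyan Wee at 164. Among the 285 higher genes it was nearer to Moddai Karuppan at 162 and to Niyan Wee at 123. At 150 of the 503 (29.8%) the pair were the highest and the lowest of the 5 cultivars, against 7.8% of all genes tested. Moddai Karuppan alone was outermost at 121 (24.1%, against 34.8% of all genes) and Niyan Wee alone at 147 (29.2%, against 24.7%). Both cultivars entered the choice of the 503, so no test is given for these counts. Nearness was counted over the 503 alone, so its shares have no value over all genes tested beside them.

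**Figure D5:**
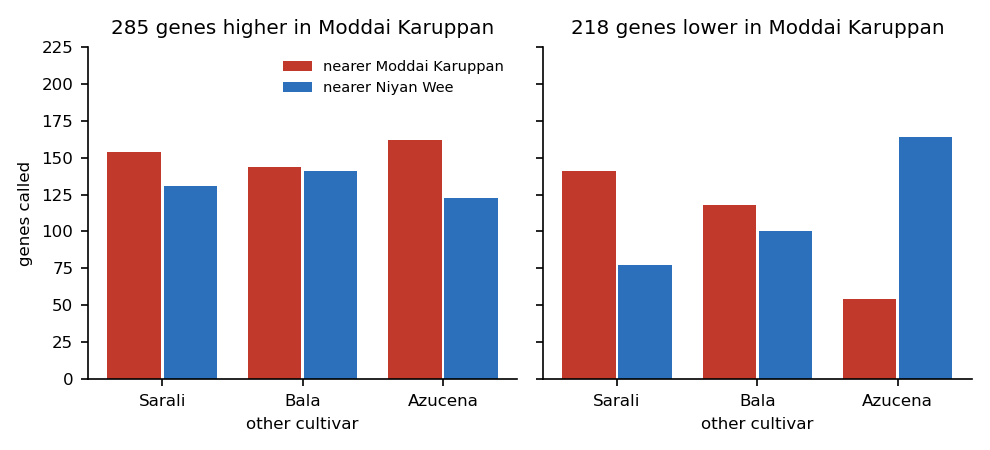
Bars count the called genes whose mean level in another cultivar lies nearer to Moddai Karuppan (red, left) or to Niyan Wee (blue, right) on the log2(CPM + 0.25) scale, for genes higher and genes lower in Moddai Karuppan. Among the lower genes Sarali is nearer to Moddai Karuppan at 141 and to Niyan Wee at 77, and Azucena shows the opposite split, 54 and 164.

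The pools gave partly the same genes. Pool P1 alone called 378 genes, of which 377 were tested in pool P2, 314 (83.3%) had the same direction there and 110 were called there. Pool P2 alone called 180, of which 179 were tested in pool P1 and 144 (80.4%) had the same direction. This lookup was chosen after the data were seen. Agreement in direction between the pools was not counted over all genes tested, so these shares have no such value beside them. Among named genes, salT and DGAT1-2 were called in each pool alone, and of the 24 called genes named above 17 were not called in pool P1 alone and 22 not in pool P2 alone, where 2 libraries stand for each cultivar. Their directions were the same in both pools.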

How the data were processed

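Root RNA libraries were made with a stranded total RNA kit that removes ribosomal RNA, per the labels' protocols, while another label names polyA RNA. Per the submitters' processing notes, which assign no roles, the tools were HISAT2 (no version) and edgeR 3.36.0, and IRGSP-1.0 was the build. How reads were counted, by which tool and strand setting, and what became of shared reads is not given in the sources used here.

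Expected counts per gene were deposited by the authors for 21237 genes (7.58% of values not whole, per the file itself). The design assumed whole counts, so values were rounded. Another 2 rows named no gene and were left out. Names came from the reference table of assembly ASM3414082v1 (20839 rows matched, 2370 named), which gave no coordinates here.

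Genes passed filterByExpr by cultivar (minimum count 10, 12 removed). edgeR 4.0.16 in R 4.3.3 fitted all 20 libraries with 1 mean per cultivar, TMM scaling and a quasi-likelihood test of Moddai Karuppan minus Niyan Wee, and p-values were adjusted by Benjamini-Hochberg over 21225 genes at 0.05. CPM values are TMM-scaled with ribosomal RNA included, and their depth is the count range given with the library totals. DESeq2 1.42.0, other scaling, filters, covariates, pools and left-out libraries were tried. A replicate block was fitted because the labels tag the number as a batch. Deviations of same-numbered libraries correlated at 0.0501, 0.116, -0.0976 and -0.108.

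The pair, the 29 lists built on symbol patterns and the rules were chosen with earlier results of these data known, 2 lists were added after values were seen, and 24 false matches of the patterns were removed then. Named genes were those with an adjusted p below 0.05 with all libraries and without each of the 8, not overlapping between the cultivars, by the highest and lowest fold changes and the smallest p, where the ranking by fold required 5 CPM or more on average in the higher cultivar. TAC1 and BC1L2, under that level, were named after their values were seen. Aquaporins, up to 4 called members per list, the 2 highest and 2 lowest unnamed genes and the longest runs of neighbours completed the rule. Lsi2 and Cht1 were also named after their values were seen.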

Additional observations from a re-analysis of the deposited data

Results flagged for a closer look

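Within a cultivar's 4 libraries, 1 library stood away from the other 3 by Dixon's gap test at 7 of 94 groups checked (genes named here and the ribosomal RNA share, in each cultivar), and chance alone marks about 1 in 20 groups. Niyan Wee replicate 4 stood high in TIP1-1 (1172 CPM), TIP2-1 (295 CPM), NIP2-2 (44.9 CPM) and SODCC.2 (121 CPM). Niyan Wee replicate 1 was the 1 library of its cultivar with counts of ORR5 (0.247 CPM). Moddai Karuppan replicate 1 stood high in SIP1-1 (59.7 CPM) and Moddai Karuppan replicate 2 in PIP2-3 (93.0 CPM).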

How the results depend on the processing

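The count of called genes (503, 285 higher and 218 lower) was within a factor of 1.5 under RLE scaling, no low-count filter, removal of ribosomal RNA genes, the ribosomal RNA share or pool as a covariate, the replicate block (508 calls, 448 shared) and the 8 libraries of the pair alone (415 calls, 326 shared). The low-count filter had removed 12 genes, so dropping it could change little. DESeq2 called 957 (512 higher, 445 lower), of which 497 were shared. The filter at 5 CPM left fewer genes to test and 283 calls (149 higher, 134 lower). With fewer samples, pool P1 alone called 184 higher genes and 194 lower, pool P2 alone called 180 (116 higher, 64 lower), and without Niyan Wee replicates 2 and 3 there were 277 (152 higher, 125 lower). Leaving out 1 library gave 360 (without Moddai Karuppan replicate 1) to 542 calls, 201 to 306 higher and 126 (again without Moddai Karuppan replicate 1) to 239 lower.

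Called list members (9) numbered 27 with DESeq2, 1 in pool P2 alone, 4 when Niyan Wee replicates 2 and 3 were left out, and, with 1 library left out, from 4 (Moddai Karuppan replicate 1 or Niyan Wee replicate 3) to 17 (Niyan Wee replicate 4). Outside the values given for cell division and for 4 called genes that the text does not name, the replicate block ended no named call. The 24 called genes named kept their direction under each alternative that tested them, and the filter at 5 CPM tested 20 of them (not TAC1, BC1L2, ORR5 or CYP734A5). In the fit of the pair's libraries alone 15 of the 24 calls ended, 7 of them among the 14 that held without each library (values given with those genes), and the cause was not tested.

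Of the aquaporins, none of them called with all libraries, 13 changed sign under some alternative. With 1 library left out, log2 fold changes ran from -0.15 to 0.44 for PIP1-1, -0.33 to 0.44 for PIP2-2, -0.25 to 0.82 for PIP2-3, -0.28 to 0.16 for TIP1-2 and -0.24 to 0.028 for TIP4-1. In pool P1 alone they were 0.41 for PIP1-3, 0.74 for PIP2-2, 0.18 for PIP2-5, -0.023 for SIP2-1, 0.59 for TIP1-2 and 0.22 for TIP4-1. In pool P2 alone they were -0.033 for NIP2-2, -0.017 for PIP1-1, -0.56 for PIP2-3 and -0.10 for TIP2-1. Without Niyan Wee replicates 2 and 3 they were -0.047 for TIP1-1, -0.33 for NIP2-2, -0.00092 for NIP1-2, -0.44 for PIP1-1, -0.64 for PIP2-3, -0.24 for PIP2-6 and 0.0035 for TIP4-1. The ribosomal RNA covariate gave -0.03 for PIP1-1 and -0.017 for PIP2-3, the pool covariate 0.00051 for TIP1-2, and the replicate block 0.059 for PIP2-2 and 0.009 for TIP1-2. The cause was not tested. Depth limits genes at a few counts, where a call rests on few reads.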
